A study of Mus musculus with 2 samples.

Results

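The subject is a set of 10 genes of fibroblast growth factor (FGF) signalling in the mouse embryonic limb. The set holds 4 secreted ligands (Fgf7, Fgf9, Fgf10 and Fgf18), 4 receptor tyrosine kinases (Fgfr1 to Fgfr4), the receptor-like gene Fgfrl1 and the feedback inhibitor Spry1. All 10 were found by symbol among the 32285 genes counted in each library, and their cell sources were compared at embryonic stages E12.5 and E15.5. Skeletal muscle tissue of wild-type C57Bl/6 limbs was sampled, with forelimbs and hindlimbs in the same suspension, after mechanical and trypsin treatment. There was 1 library per age, so no difference below has a replicate check or a test, and every interval is a 95% interval for counting error alone. The number and sex of the embryos are not given in the sources used here.

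Secreted FGFs bind receptors at the cell surface together with heparan sulphate, and the receptors then signal through the FRS2 adaptor, RAS and ERK. Fgf7 and Fgf10 belong to one ligand subfamily, which is known for signalling from mesenchyme to epithelium through an epithelial splice form of Fgfr2. Fgf9 and Fgf18 bind mesenchymal receptor forms and are known for roles in cartilage and bone. In limb muscle, Fgfr4 is a known marker of myogenic progenitors. Sprouty proteins such as Spry1 dampen the receptor signal and are often switched on by it. The counts come from the 3′ end of transcripts and cannot tell receptor splice forms apart.

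Levels are UMI counts, in which each captured RNA molecule counts once, summed over the cells of a class and scaled to the usual CPM unit by the total UMIs of that class. Classes were rebuilt from marker genes, and none of the 10 genes was used to form clusters. After filtering, the E12.5 library kept 11001 cells (median 2323 UMIs) and the E15.5 library 3916 (median 9329), and 11 kept barcodes occurred in both libraries. The muscle-lineage class held 606 and 397 cells, connective tissue 8011 and 1983, chondrocytes 1157 and 586, and tenocytes 480 and 151. Endothelial cells numbered 130 and 152, Schwann cells 26 and 81, immune cells 24 and 57, epithelial cells 15 and 25, and erythroid cells 45 and 19. Mural, mast and melanocyte clusters of 70, 70 and 10 cells were found only in the E15.5 clustering, and 507 and 315 cells stayed unnamed. The 13 muscle markers, which also served to name the muscle class, summed to 13746 CPM in it at E12.5 and 6736 CPM at E15.5. The 10 connective tissue markers summed to 379 and 525 CPM there. The muscle sums describe the class and are no separate check of its label. The tenocyte label is less certain at E12.5. Its 6 markers summed to 485 CPM in that class, 454 CPM in unnamed cells and 148 CPM in connective tissue. The 11 chondrocyte markers summed to 6042 CPM in E12.5 tenocytes, against 2682 CPM in connective tissue. All E12.5 tenocyte values below carry this limit. Ratios between ages were read against the median gene, whose log2 ratio (E15.5 over E12.5) was -0.36 in muscle, -0.38 in connective tissue and -0.22 in chondrocytes.

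**Figure D1:**
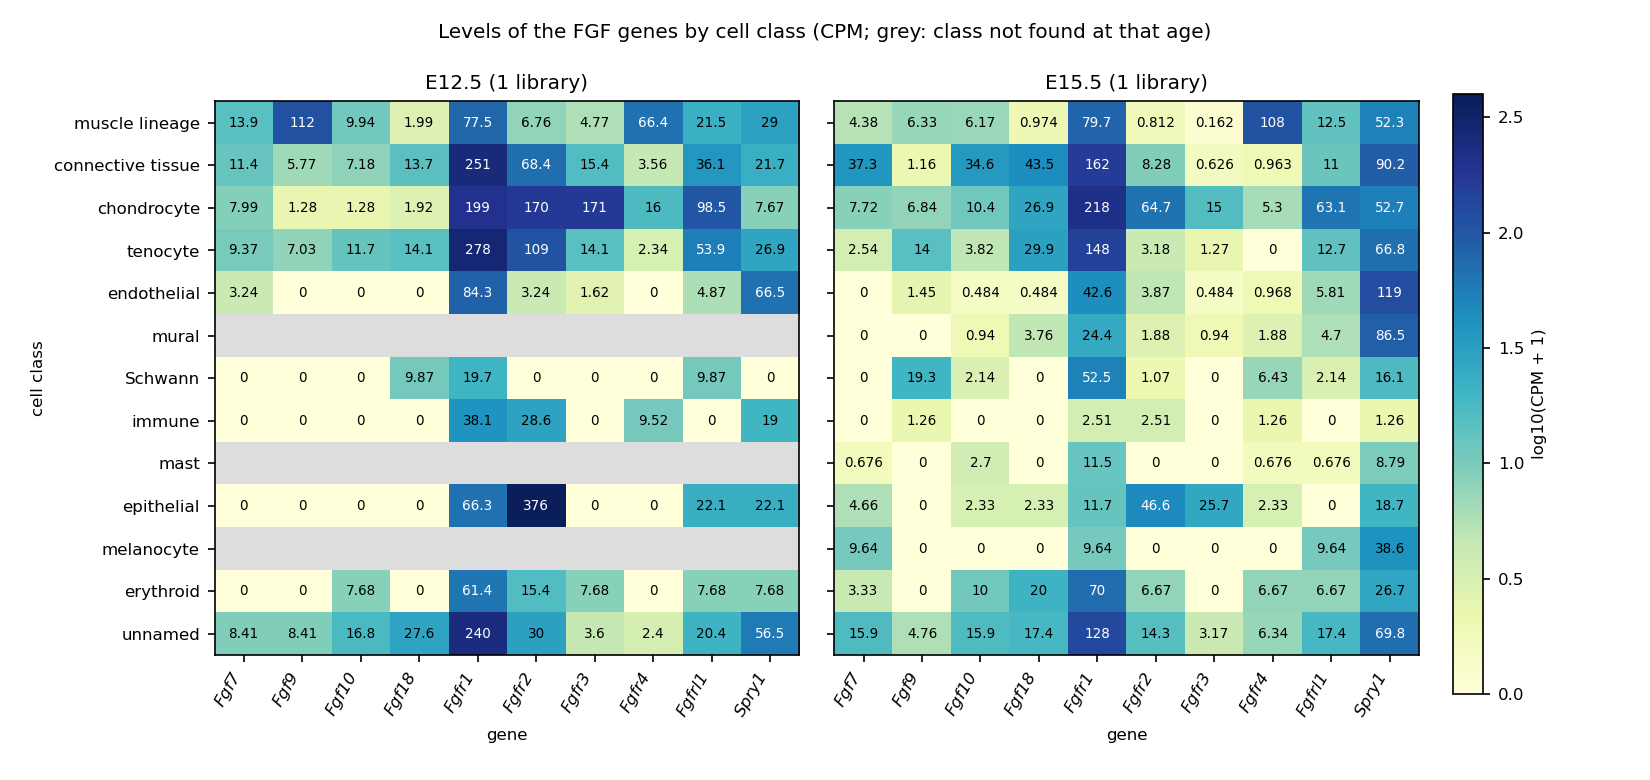
Level of each gene (columns) in each cell class (rows) at E12.5 (left) and E15.5 (right), as CPM printed in each field, with colour on a log10(CPM + 1) scale. Fgf9 and Fgfr4 are dark in the muscle row at E12.5, where they reach 112 and 66.4 CPM, and at E15.5 Fgfr4 alone of these 2 remains high there, at 108 CPM against 6.33 CPM for Fgf9.

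At E12.5 the muscle lineage was the main source of Fgf9 and of Fgfr4. Fgf9 (chromosome 14, GRCm38, chr14:58070547-58112720, plus strand) stood at 112 CPM in muscle (99.0 to 126; 281 UMIs), 21.8 times the 5.13 CPM of all other kept cells. Muscle cells were 5.51% of the cells and gave 68.0% of the Fgf9 UMIs. Next came tenocytes at 7.03 CPM and connective tissue at 5.77 CPM, whose intervals overlapped, then chondrocytes at 1.28 CPM. No Fgf9 UMI was seen in endothelial, immune, erythroid, Schwann or epithelial cells, and for endothelial cells a count of 0 allows up to 4.87 CPM.

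Fgfr4, the receptor whose expression marks myogenic cells (chr13:55152640-55168759, plus strand), stood at 66.4 CPM in E12.5 muscle (56.7 to 77.2; 167 UMIs). This was 13.6 times the 4.90 CPM of the other cells, and the muscle class gave 57.0% of the Fgfr4 UMIs. Chondrocytes came next at 16.0 CPM (11.9 to 21.1), above connective tissue at 3.56 CPM (2.78 to 4.50). Of the 10 genes, Fgf9 and Fgfr4 were the 2 at least 4-fold higher in muscle than in the other cells, against 2.73% of all 15132 genes tested. At E15.5 Fgfr4 was the only 1 of the 10, against 2.42% of 15483 genes.

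Between the ages these 2 genes differed in opposite directions in muscle. From 112 CPM in the younger library, Fgf9 stood at 6.33 CPM in the older (4.50 to 8.66; 39 UMIs). It was thus 17.6-fold lower (12.6 to 25.3), with a log2 ratio between -4.66 and -3.65 around -4.14. Against 66.4 CPM in the younger library, Fgfr4 stood at 108 CPM in the older (99.8 to 116; 664 UMIs). Its log2 ratio was 0.70 (0.45 to 0.95), and 1.06 when scaled to the median gene. The muscle share of all Fgfr4 UMIs was 91.3% at E15.5, while that of Fgf9 UMIs was 27.7%. The level of Fgfr4 in muscle at E15.5 was 59.3 times the 1.82 CPM of the other cells.

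Shares of muscle cells with a UMI gave the same order. With every cell thinned to 2000 UMIs, Fgf9 was detected in 18.0% of 557 muscle cells at E12.5 (exact binomial interval 14.9 to 21.4) and in 1.53% of 391 at E15.5 (0.565 to 3.31). In endothelial cells, which serve as a background for RNA free in the droplets, these shares were 0% of 116 cells and 1.53% of 131. The thinned E15.5 share in muscle therefore equals this background and is not read as detection, although the summed level of 6.33 CPM lay above the endothelial 1.45 CPM (0.3 to 4.25). Fgfr4 was detected in 13.5% of the E12.5 and 17.4% of the E15.5 muscle cells, against 0% and 1.53% of endothelial cells. Thinning left out 49 and 6 muscle cells. Without thinning, at median depths of 3774 and 14350 UMIs, the muscle shares were 31.2% and 6.30% for Fgf9 and 22.6% and 72.3% for Fgfr4.

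Ligand and receptor were detected in the same E12.5 muscle cells about as often as in other cells of the class. After thinning, 12 of 557 cells held both, and Fgfr4 was detected in 12.0% of the cells with an Fgf9 UMI and in 13.8% of those without. At E15.5 only 6 thinned muscle cells had an Fgf9 UMI, too few to compare.

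RefSeq upstream sequence on GRCm38.p6 was available for 9 of the 10 genes. The 2 stretches below are shown because these genes share muscle as their main E12.5 source. Each runs 5′ to 3′ on the gene's strand and stops at the RefSeq start or at the first base that GENCODE vM21 places in an exon of the gene. The Fgf9 stretch covers 250 bases (chr14:58072436-58072685), which lie in an intron of the longest annotated transcript and directly before the first exon of another. The Fgfr4 stretch covers 72 bases (chr13:55152568-55152639).
Fgf9: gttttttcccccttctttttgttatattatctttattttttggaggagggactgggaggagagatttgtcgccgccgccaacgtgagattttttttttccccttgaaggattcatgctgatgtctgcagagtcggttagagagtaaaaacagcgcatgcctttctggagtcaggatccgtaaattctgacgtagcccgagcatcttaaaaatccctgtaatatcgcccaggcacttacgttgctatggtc
Fgfr4: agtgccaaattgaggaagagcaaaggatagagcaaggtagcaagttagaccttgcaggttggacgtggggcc
Both strands were searched for the E-box letters CANNTG, the general motif of myogenic bHLH factors; the motif reads the same on both strands. Neither printed stretch holds it, so no letter is in capitals. In the full 250 bases before the RefSeq start, CANNTG occurred 0 times for Fgf9 and 2 times for Fgfr4. It occurred in 66.2% of the 32851 such windows of the table and for 7 of the 9 genes, so its presence sets none of them apart. The core CAGCTG, 1 of the CANNTG forms, was found in 13% of windows and for 1 of the 9 genes, Fgfr3.

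**Figure D2:**
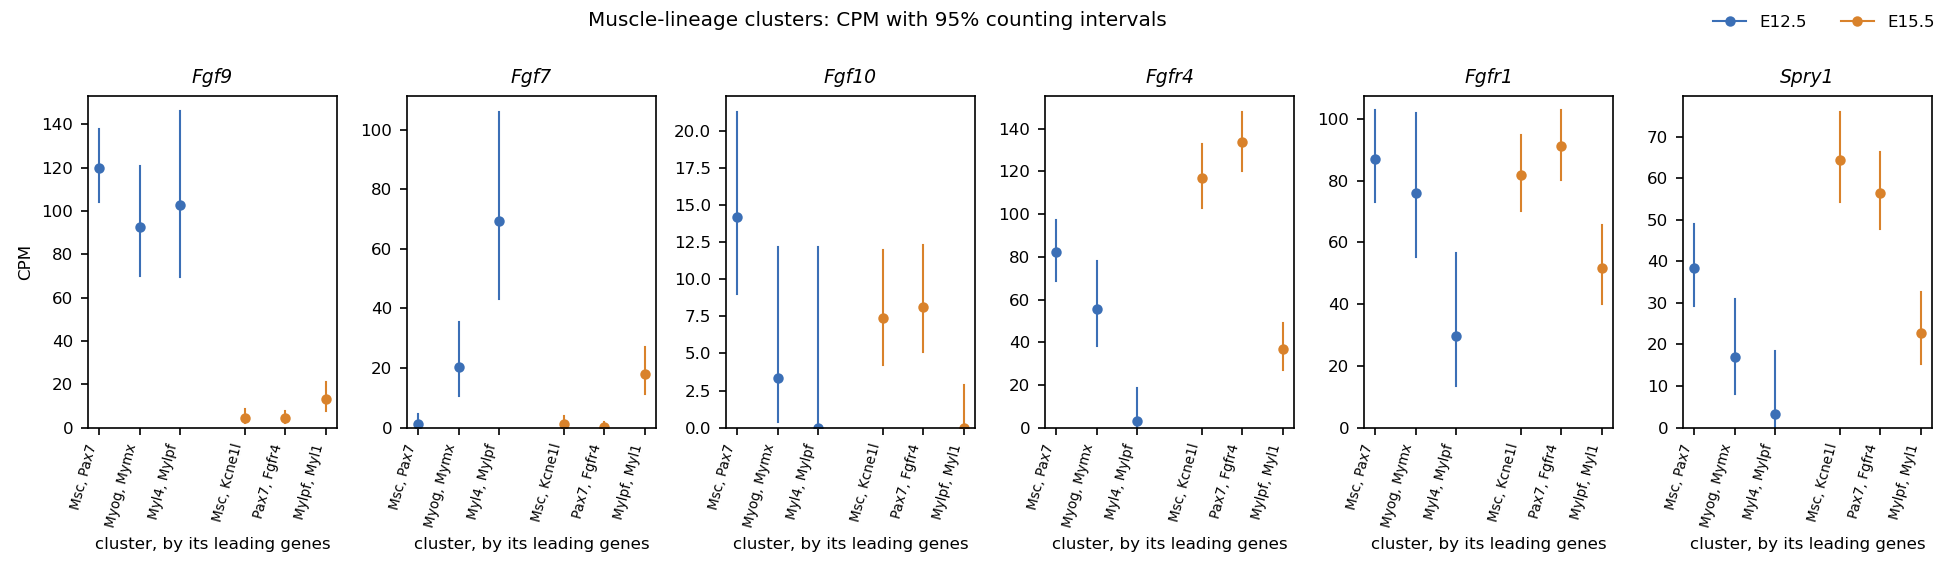
Level (CPM) of 6 genes in the 3 muscle-lineage clusters of each age, named by 2 leading genes, with 95% counting intervals as lines. Fgf9 is between 92.7 and 120 CPM in all 3 E12.5 clusters, Fgf7 is highest in the clusters led by Myl4 (E12.5) and Mylpf (E15.5), and Fgfr4 is lowest in those same clusters.

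Within muscle, the genes split between undifferentiated and differentiated cells. At E12.5 the clusters were led by Msc and Pax7 (396 cells, progenitor genes), by Myog and Mymx (160 cells, differentiation and fusion genes) and by Myl4 and Mylpf (50 cells, myosin light chains). Fgf9 was 120, 92.7 and 103 CPM in them, with overlapping intervals. Fgfr4 was 82.1, 55.6 and 3.31 CPM, so it was nearly absent from the myosin-led cells that held as much Fgf9 as the progenitors. At E15.5 Fgfr4 was 117 and 134 CPM in the clusters led by Msc and by Pax7, and 36.8 CPM in that led by Mylpf.

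Cells were also divided by their own UMIs of progenitor genes (Pax7, Myf5) against differentiation genes (Myog, Mymk, Mymx). At E12.5, 200 cells had more progenitor UMIs, 253 more differentiation UMIs and 153 tied, 145 of them with no UMI of either. At E15.5 the numbers were 231, 141 and 25. Differences of 1 UMI placed 149 and 49 of the divided cells, so the division is a range and not a pair of types.

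Fgf9 was 116 CPM in the progenitor part and 96.6 CPM in the differentiation part at E12.5, a log2 ratio of -0.27 whose interval (-0.67 to 0.14) includes 0. At E15.5 the order of the summed levels was the other way, 3.32 against 11.8 CPM, a log2 ratio of 1.83 (0.81 to 2.95) from 12 and 27 UMIs. The thinned E15.5 shares were 0.866% (0.105 to 3.09) and 2.94% (0.807 to 7.36). Both intervals include the endothelial share, so detection is not read from them. Between the ages Fgf9 was lower in both parts, by a log2 ratio of -5.13 (-6.13 to -4.26) in progenitors and -3.03 (-3.69 to -2.41) in differentiating cells. The intervals do not overlap.

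Among the divided cells, Fgf7 and Fgf10, sister ligands, lay in opposite parts of the muscle lineage. At E12.5 all 35 Fgf7 UMIs of the class fell in cells with more differentiation UMIs (31.6 CPM) and none in the progenitor part, where a count of 0 allows up to 3.52 CPM. Against that floor of 3 counts in the progenitor part, the level was 8.97-fold higher in the differentiation part, and the counting interval of the log2 ratio began at 2.79. At E15.5, 25 of 27 Fgf7 UMIs lay there, 11 against 0.554 CPM. Within the differentiated cells the level was highest in the Myl4-led cluster (69.4 CPM) and, at E15.5, in the Mylpf-led cluster (18.0 CPM). Fgf10 had the reverse order, with 12.9 CPM in progenitors against 3.61 CPM at E12.5 (log2 ratio -1.84, -3.94 to -0.08) and 9.96 against 0.439 CPM at E15.5 (-4.51, -9.85 to -1.93). These values rest on 15 and 37 Fgf10 UMIs. The tied cells, in neither part, held a further 10 Fgf10 UMIs at E12.5 (18.0 CPM) and 1 at E15.5 (3.75 CPM). The median cell of the E15.5 progenitor part had 7 UMIs of the 10 connective tissue markers and that of the differentiation part 2, with 1 in both parts at E12.5; the part of such RNA in the Fgf10 values was not tested.

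Spry1 followed Fgfr4 in order. It stood at 45.8 CPM in the progenitor part and 13.5 CPM in the differentiation part at E12.5, and at 65.9 and 29.0 CPM at E15.5. In the whole muscle class the E12.5 level was 29.0 CPM (22.7 to 36.5) and the E15.5 level 52.3 CPM (46.7 to 58.3), with a log2 ratio at 0.85 (0.48 to 1.24). The other Sprouty genes did not share this direction in muscle. Spry2 had a log2 ratio of -0.98 (-1.33 to -0.63) and Spry4 one of -0.69 (-1.19 to -0.18), and Spry3 had 2 and 1 UMIs. Fgfr1, a receptor known for its expression in mesenchyme, was 77.5 and 79.7 CPM, a log2 ratio of 0.04 (-0.20 to 0.29). The thinned share of E12.5 muscle cells with an Fgfr1 UMI was 14.4%, and 15.4% of 39 erythroid cells and 3 of 24 immune cells had one, so at E12.5 Fgfr1 in muscle is not read as detection above background. At E15.5 the thinned muscle share was 14.8%, that of erythroid cells 5.26% (1 of 19 cells, interval 0.133 to 26.0) and that of immune cells 0% of 57, which allows up to 5.26%. Erythroid cells still held 70.0 CPM (43.3 to 107; 21 UMIs) at E15.5, an interval that includes the muscle level, and immune cells 2.51 CPM, so the reading at E15.5 depends on the class taken as background. The erythroid class also held 775 and 2956 CPM of the 10 connective tissue markers at E12.5 and E15.5, against 379 and 525 CPM in muscle. The part of such RNA in its Fgfr1 levels was not tested. Within muscle, Fgfr1 was 99.8 CPM in the progenitor part and 62.3 CPM in the differentiation part at E12.5 (log2 ratio -0.68, -1.16 to -0.20). At E15.5 it was 93.6 and 59.7 CPM (-0.65, -0.95 to -0.36). Fgfrl1 was 21.5 CPM in E12.5 muscle and lower by a log2 ratio of -0.78 (-1.30 to -0.25) at E15.5.

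Over the whole class, 8 of the 10 genes had at least 20 UMIs in muscle over both ages. None of the 8 was at least 2-fold higher at E15.5 (4.65% of all 11273 genes tested were), and 3 were at least 2-fold lower (19.1% of all genes were). Scaled to the median gene, Fgfr4 (1.06) and Spry1 (1.21) passed 2-fold as higher. The share of all genes past 2-fold on that scale was not counted, so these 2 are not set against a background. The 3 lower genes were Fgf7, at 13.9 and 4.38 CPM (log2 ratio -1.67, -2.45 to -0.90), Fgf9, and Fgfr2 at 6.76 and 0.812 CPM. The Fgfr2 share in muscle at E12.5, 1.08% of thinned cells, is within that of endothelial cells (0.862% of 116) and erythroid cells (5.13% of 39), and is read as background. Fgf18 (5 and 6 UMIs) and Fgfr3 (12 and 1 UMIs) were below the count minimum.

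**Figure D3:**
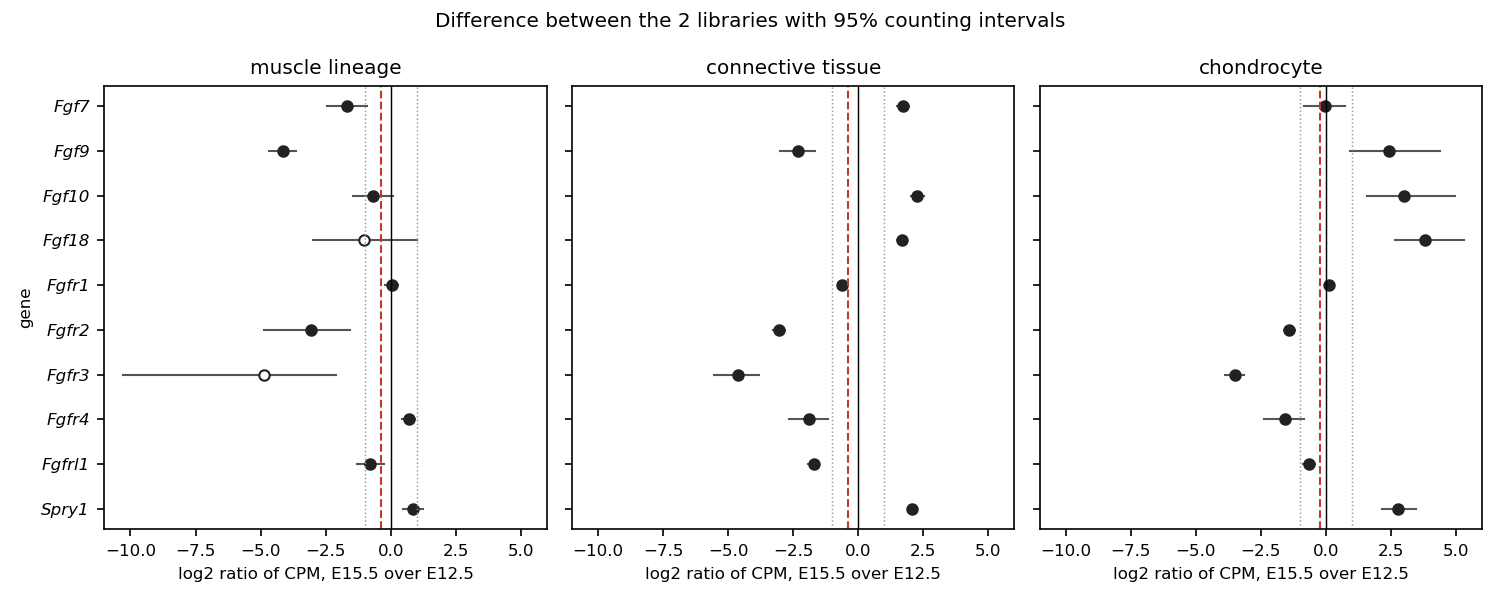
Log2 ratio of CPM, E15.5 over E12.5, for each gene in the muscle, connective tissue and chondrocyte classes, with 95% counting intervals. Open points have under 20 UMIs over both ages, the dotted lines mark 2-fold and the red dashed line the median of all genes tested; Fgf7 lies at -1.67 in muscle and at 1.71 in connective tissue.

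In connective tissue 3 of the 4 ligands were higher at E15.5, and of these Fgf7 was the one lower past 2-fold in muscle. Fgf7 (chr2:126034658-126091185, plus strand) had an E12.5 level of 11.4 CPM (9.96 to 13) and an E15.5 level of 37.3 CPM (34.7 to 40.0), with log2 ratio 1.71 (1.5 to 1.93). Fgf10 (chr13:118669791-118792115, plus strand) was 7.18 CPM (6.05 to 8.46) and 34.6 CPM (32.1 to 37.2), with log2 ratio 2.27 (2.01 to 2.54). Fgf18 (chr11:33117430-33147400, minus strand) was 13.7 CPM (12.1 to 15.4) and 43.5 CPM (40.7 to 46.4), with log2 ratio 1.67 (1.47 to 1.87). For each of these 3 ligands the E15.5 interval lay wholly above the E12.5 interval. Spry1 (chr3:37639947-37644598, plus strand) was 21.7 and 90.2 CPM, a log2 ratio of 2.05 (1.90 to 2.21).

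These 4 genes were the ones at least 2-fold higher at E15.5 in connective tissue, of 10 tested, against 10.4% of all 15368 genes. The other 5 past the threshold were lower, against 24.4% of all genes: Fgf9, Fgfr2, Fgfr3, Fgfr4 and Fgfrl1. With both libraries clustered together, Fgfr4 (log2 ratio -0.94) and Fgfrl1 (-0.75) no longer passed 2-fold, and with the chondrocyte, tenocyte and unnamed clusters added to the class Fgf9 (-0.88) did not. Cartilage markers were lower in the class as well: the 11 chondrocyte markers summed to 2682 CPM at E12.5 and 330 CPM at E15.5, with none at 0. Fgfr2, Fgfr3, Fgfr4 and Fgfrl1 were all higher in E12.5 chondrocytes than in E12.5 connective tissue. The part of cartilage cells in these 4 lower values was not tested.

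By share of UMIs, connective tissue was the main source of these 3 ligands at both ages. The class was 72.8% of the E12.5 cells and gave 74.7% of the Fgf7 and 72.6% of the Fgf10 UMIs, close to its share of cells, and 85.3% of the Fgf18 UMIs, 2.43-fold above the other cells. At E12.5 none of the 10 genes was at least 4-fold higher in connective tissue than in the other cells (0.998% of all genes were). At E15.5 Fgf7 was 9.24-fold, Fgf10 6.14-fold and Fgf18 4.41-fold higher there (2.76% of all genes were), and this class, 50.6% of the cells, gave 90.5%, 86.4% and 82.0% of their UMIs. After thinning, Fgf7, Fgf10 and Fgf18 were detected in 6.87%, 6.11% and 8.18% of 1981 connective tissue cells at E15.5 and in none of 131 endothelial cells, which allows up to 2.29%. At E12.5 the shares were 2.29%, 1.26% and 2.46% of 5076 cells, against 0.862%, 0% and 0% of 116 endothelial cells. Tenocytes carried Fgf18 at 29.9 CPM and chondrocytes at 26.9 CPM at E15.5, with overlapping intervals, while their Fgf7 levels were 2.54 and 7.72 CPM.

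**Figure D4:**
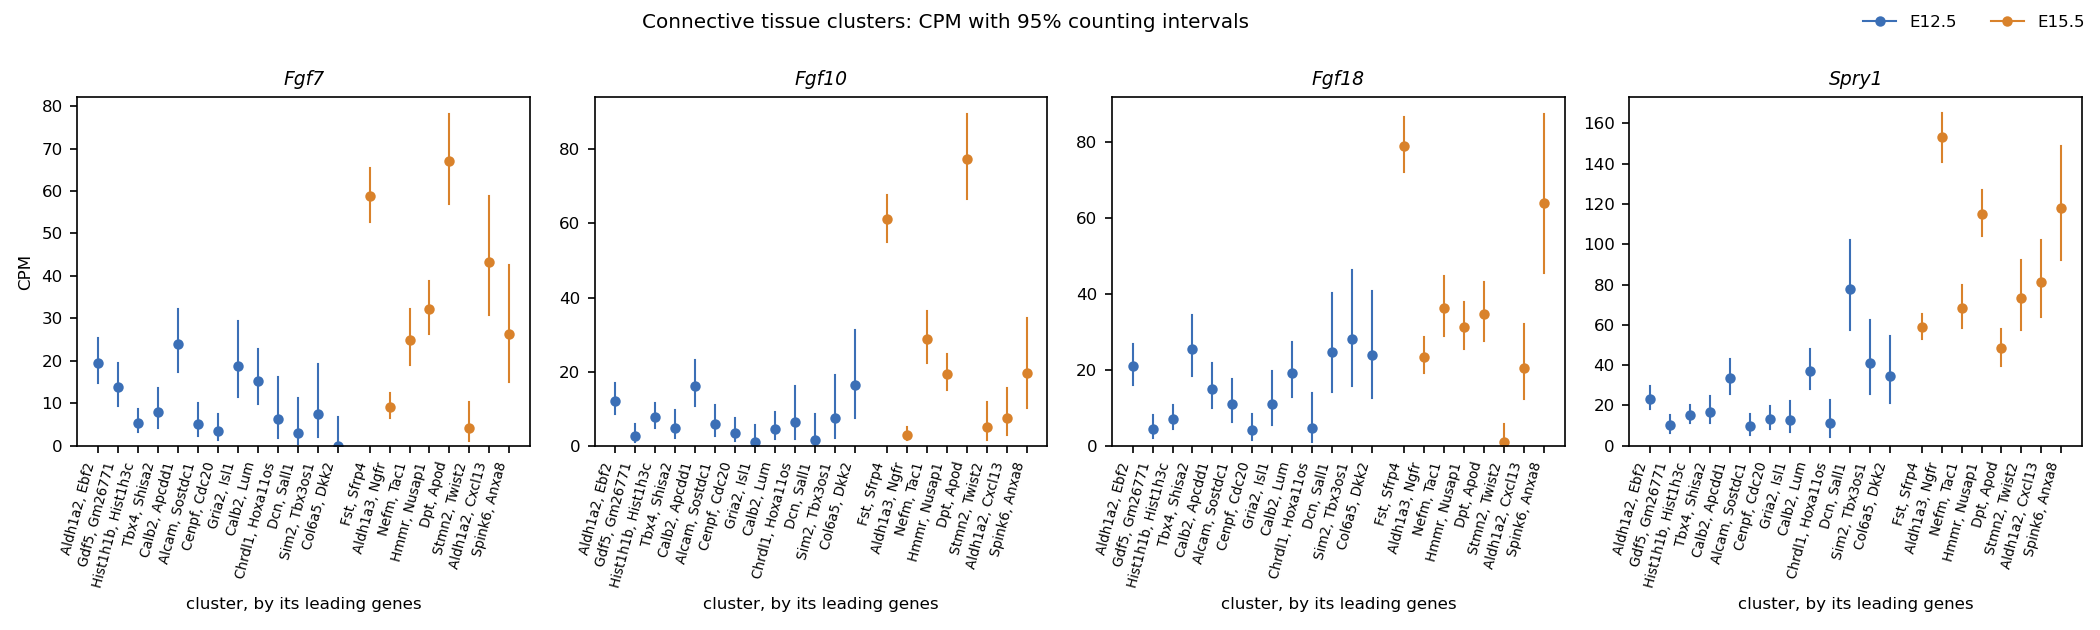
Level (CPM) of Fgf7, Fgf10, Fgf18 and Spry1 in the 13 connective tissue clusters of E12.5 and the 8 of E15.5, named by 2 leading genes, with 95% counting intervals. Fgf7 and Fgf10 are highest in the E15.5 clusters led by Fst and by Dpt, and Spry1 is highest in that led by Aldh1a3, where Fgf10 is 2.88 CPM.

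The ligands were uneven among connective tissue clusters. At E15.5 the largest cluster, led by Fst and Sfrp4 (636 cells), held Fgf7, Fgf10 and Fgf18 at 58.8, 61.1 and 79.0 CPM. The cluster led by Dpt and Apod (216 cells), held Fgf7 and Fgf10 at 67.0 and 77.5 CPM but Fgf18 at 34.7 CPM. In contrast, the cluster led by Aldh1a3 and Ngfr (395 cells) held Fgf7 and Fgf10 at 9.12 and 2.88 CPM and had the highest connective tissue level of Spry1, 153 CPM. The cluster led by Stmn2 and Twist2 (82 cells) held little Fgf18 (1.02 CPM) and the highest Fgfr1 of any cluster, 516 CPM.

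At E12.5 no connective tissue cluster exceeded 23.9 CPM for Fgf7 or 16.5 CPM for Fgf10. The highest E12.5 levels of Fgf18 and Fgf10 lay in small unnamed clusters. Fgf18 was 118 CPM in a cluster of 58 cells led by Slitrk6 and Macc1, and Fgf10 was 36.5 CPM in a cluster of 155 cells led by Grem1 and Alx1, which also held Spry1 at 116 CPM. The 507 unnamed E12.5 cells held 4183 CPM of the 10 connective tissue markers, with none at 0. The connective tissue class held 3537 CPM. This sum is for all unnamed cells and is not given by cluster. The E12.5 connective tissue levels leave these cells out, so they do not cover all cells with such markers. Few cells held 2 ligands after thinning. In E15.5 connective tissue, Fgf18 was detected in 14.9% of thinned cells with an Fgf10 UMI and in 7.74% of those without, and 18 of 1981 cells held both.

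Fgfr1 (chr8:25513654-25575718, plus strand) was spread over the mesenchymal classes. At E12.5 it was 278 CPM in tenocytes, 251 CPM in connective tissue and 199 CPM in chondrocytes, and the tenocyte and connective tissue intervals met (243 to 315, and 245 to 259). At E15.5 the order was chondrocytes (218 CPM), connective tissue (162 CPM) and tenocytes (148 CPM), the last 2 with overlapping intervals. The connective tissue log2 ratio was -0.64 (-0.70 to -0.57), and -0.26 when scaled to the median gene. Immune cells had 38.1 CPM of Fgfr1 from 4 UMIs at E12.5 and 2.51 CPM from 2 UMIs at E15.5.

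Fgfr2 (minus strand) had its highest E12.5 levels in epithelium, chondrocytes and tenocytes, while connective tissue, the class with most cells, gave 66.3% of its UMIs. Its annotated model, chr7:130162451-133123350, overlaps 69 other gene models, 36 of them on the same strand, so its counts are uncertain. Epithelial cells held 376 CPM (219 to 602), from 17 UMIs in 15 cells, chondrocytes 170 CPM, tenocytes 109 CPM and connective tissue 68.4 CPM. At E15.5 the levels were 46.6 CPM in epithelium, 64.7 CPM in chondrocytes, 3.18 CPM in tenocytes and 8.28 CPM in connective tissue. The 11 chondrocyte markers summed to 6042 and 1559 CPM in the tenocyte class, with only Snorc at 0 at both ages, and the 6 tenocyte markers to 485 and 3316 CPM with none at 0. Their part in the tenocyte difference of Fgfr2 was not tested. In connective tissue the age difference of Fgfr2 was a log2 ratio of -3.05 (-3.28 to -2.82), and -1.72 with both libraries clustered together.

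Fgfr3 (chr5:33721674-33737068, plus strand), which restrains the growth of cartilage, was highest in chondrocytes at E12.5. At E12.5 it stood at 171 CPM (157 to 186) there, 12.8 times the level of the other cells, against 15.4 CPM in connective tissue and 14.1 CPM in tenocytes. It was the only 1 of the 10 genes at least 4-fold higher in E12.5 chondrocytes (1.28% of all genes were). At E15.5 there were 3, Fgfr2 (10.4-fold), Fgfr3 (17.6-fold) and Fgfrl1 (6.38-fold), against 1.89% of all genes. Epithelial cells at E15.5 held 25.7 CPM of Fgfr3 from 11 UMIs.

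**Figure D5:**
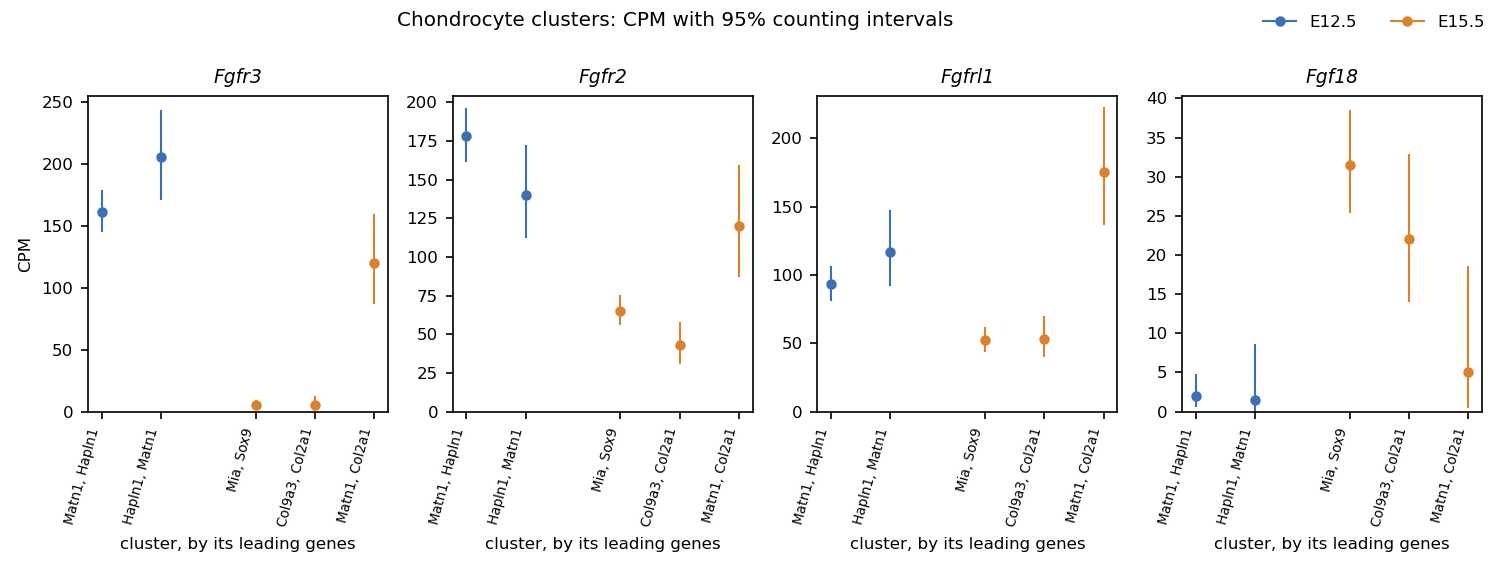
Level (CPM) of Fgfr3, Fgfr2, Fgfrl1 and Fgf18 in the 2 chondrocyte clusters of E12.5 and the 3 of E15.5, named by 2 leading genes, with 95% counting intervals. The Matn1-led clusters hold Fgfr3 at both ages, while the E15.5 clusters led by Mia and by Col9a3 hold 4.92 and 5.51 CPM.

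The age difference of Fgfr3 in chondrocytes turned on which cartilage cells were compared. The class level was 171 CPM and then 15 CPM (11.7 to 19), with log2 ratio -3.51 (-3.89 to -3.14). However, all 1157 chondrocytes of E12.5 were in clusters led by Matn1 and Hapln1, cartilage matrix genes, while at E15.5 only 44 cells were in a Matn1-led cluster and 447 and 95 in clusters led by Mia and by Col9a3. Between the Matn1-led clusters, a comparison added after the data were seen, Fgfr3 was 171 and 120 CPM (log2 ratio -0.51, -0.98 to -0.08). With both libraries clustered together the log2 ratio was 0.46. No age order of Fgfr3 in cartilage is read from these values. Fgfr2 in the Matn1-led clusters was 170 and 120 CPM, and Fgf18 was 1.92 and 5.09 CPM from 6 and 2 UMIs.

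Fgfrl1 (chr5:108692382-108706924, plus strand), which lacks the kinase domain, had chondrocytes as its highest class, with 98.5 CPM (87.8 to 110), then 63.1 CPM (56.0 to 70.9). Tenocytes and connective tissue followed at E12.5 with 53.9 and 36.1 CPM, and at E15.5 with 12.7 and 11 CPM, with muscle between them. Between the Matn1-led clusters it was higher at E15.5, 98.5 and 175 CPM, so its direction in cartilage also turned on the clusters compared.

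Spry1 was found in most classes. At E15.5 its levels were 119 CPM in endothelial cells (104 to 134), 90.2 CPM in connective tissue, 86.5 CPM in mural cells, 66.8 CPM in tenocytes, 52.7 CPM in chondrocytes and 52.3 CPM in muscle. The connective tissue and mural intervals overlapped, as did those of chondrocytes and muscle. At E12.5 endothelial cells were also first among the named classes, at 66.5 CPM, while chondrocytes held 7.67 CPM. After thinning, a Spry1 UMI was seen in 8.62% of the E12.5 and 22.1% of the E15.5 endothelial cells.

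Outside muscle, the named classes with the highest E15.5 Fgf9 levels were Schwann cells and tenocytes. Schwann cells held 19.3 CPM (11.4 to 30.5) from 18 UMIs, and tenocytes 14 CPM (8.77 to 21.2) from 22 UMIs. These were 6.26-fold and 4.62-fold above the other cells, and the share of all genes that high was not counted for these classes. Their intervals overlapped, and chondrocytes followed at 6.84 CPM beside muscle at 6.33 CPM. No Schwann cell had an Fgf9 UMI after thinning, and 2.68% of 149 tenocytes did, so both levels rest on few molecules. Neither share is read as detection above the endothelial background, although both summed levels lay above the endothelial 1.45 CPM.

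Genes whose levels ran most like each of the 10 over the 49 clusters with at least 30 cells were listed by Pearson's r of log2(CPM + 10), as a description. The clusters share libraries and depth. Fgf9 ran most like Frem2 (0.82), Musk (0.80) and Kremen2 (0.78). Fgfr4 ran most like Pax7 (0.87), Kcne1l (0.85) and Msc (0.85), and its r with Fgf9 was 0.38. Fgfr3 ran most like Matn1 (0.95), Fgfr2 like Wwp2 (0.91), Fgfrl1 like Mia (0.91) and Fgfr1 like Fbn2 (0.89). Among ligands, Fgf18 ran most like Serpinf1 and Ccdc102a (0.82 each). Fgf7 and Fgf10 had no neighbour above 0.72 and 0.71 (AW551984 and Dmrt2), and their r with each other was 0.48.

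Of the other 14 FGF ligands, 1 passed the minimum of 20 UMIs in muscle and 7 in connective tissue. Fgf16 was seen with 26 UMIs in E15.5 muscle and none at E12.5. Against a floor of 3 counts in E12.5 muscle this was 3.54-fold higher, and the counting interval of the log2 ratio began at 1.42. In connective tissue Fgf16 and Fgf21, the latter an endocrine FGF, were at least 2-fold higher at E15.5, with 2.46 and 1.25 CPM there, and Fgf5, Fgf8 and Fgf22 were lower, against 10.4% and 24.4% of all genes. Fgf8, the ligand of the limb's ectodermal ridge, was 3.82 CPM at E12.5 and 0.433 CPM at E15.5. Of 5 ligands of this list tested at E12.5, Fgf8 and Fgf22 were at least 4-fold higher in connective tissue than in the other cells (0.998% of all genes were). Their folds were 6.36, from 76 against 5 UMIs, and 5.23, from 25 against 2 UMIs. The median log2 ratio of the ligand list in connective tissue was -0.44, against -0.38 for all genes. Of the 4 intracellular homologous factors, which are not secreted, 3 were tested in muscle. Fgf12 was higher in E15.5 muscle (2.38 and 12.7 CPM) and Fgf11 lower (9.94 and 3.25 CPM), against 4.65% and 19.1% of all genes.

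Several genes that shape the access of FGFs to their receptors were lower in E15.5 muscle. Of 19 heparan sulphate carriers and enzymes, 8 were at least 2-fold lower and none higher, against 19.1% and 4.65% of all genes, with a list median of -0.78 against -0.36 for all genes. Examples are the syndecan Sdc3 (72.3 and 29.6 CPM) and the glypican Gpc6 (68.0 CPM, then 2.26-fold lower). In connective tissue 2 of 19 were higher, perlecan (Hspg2, 37.9 and 77.9 CPM) and Gpc4 (26.0 and 58.2 CPM), and 2 lower, Hs6st2 and Gpc2, with a median of -0.52; among all genes 10.4% were higher and 24.4% lower, so these counts are not above the background. Of 7 co-receptors and FGF-binding genes, 3 were tested in muscle and 5 in connective tissue. Flrt2 and Flrt3, transmembrane proteins known to bind FGF receptors, were lower in muscle, where 19.1% of all genes were. They stood at 59.6 and 13.8 CPM and at 56.8 and 6.82 CPM. In connective tissue Flrt2 was lower too (239 and 95.1 CPM), and Fgfbp1 was higher from 3 and 17 UMIs, against 24.4% and 10.4% of all genes.

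Of 16 adaptors and members of the ERK cascade, 15 were tested in muscle and 16 in connective tissue, and 1 was at least 2-fold higher and 3 lower in each class. The lower counts are near the 19.1% of all genes in muscle and below the 24.4% in connective tissue. Mapk3, which encodes ERK1, was higher in both (9.54 and 19.8 CPM in muscle, 13.7 and 36.3 CPM in connective tissue), and Frs2, Sos1 and Braf were lower in both. The list medians were -0.26 in muscle and -0.40 in connective tissue. Of 17 other feedback inhibitors and target genes, 4 of 15 tested were lower in muscle and 8 of 17 in connective tissue, and 1, Fos, was higher in each. Of all genes, 19.1% were lower and 4.65% higher in muscle, close to the list's counts there, and 24.4% lower and 10.4% higher in connective tissue. The list medians were -0.61 and -0.45. Fos was 138 and 366 CPM in muscle and 264 and 1203 CPM in connective tissue. Ccnd1 was 97.4 and 41.9 CPM in muscle and 528 and 151 CPM in connective tissue. Dusp6, a phosphatase that dephosphorylates ERK, was 105 and 39.0 CPM in connective tissue, Il17rd was 35.8 and 13.5 CPM in muscle, and Etv4 and Etv5 were lower in connective tissue. In the same class and between the same libraries, Spry1 was 21.7 and 90.2 CPM. It was not alone in this direction there. Spry2 (log2 ratio 0.56, 0.44 to 0.68), Spry4 (0.89, 0.71 to 1.07) and Egr1 (0.55, 0.52 to 0.59) were higher too, short of 2-fold. Spry3 was among the 8 lower genes (-1.31, -2.25 to -0.43).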

How the data were processed

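The authors deposited unnormalized UMI counts for every gene and barcode from 10x 3′ v3.1 libraries, written by Cell Ranger 4.0.0, on build mm10 (GRCm38); per the submitters' processing notes Seurat 4.3.0 was also used, in a role not given in the sources used here. Barcodes numbered 12941 at E12.5 (34907675 UMIs) and 5780 at E15.5 (46966083 UMIs), and 17 barcodes occurred in both. The settings that tell cells from empty droplets and the use of strand in counting are not given in the sources used here. In GENCODE vM21, Fgf7, Fgf9, Fgf10, Fgfr1, Fgfr3 and Spry1 each overlap 1 gene model on the opposite strand.

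Cells with at least 500 genes and under 10% mitochondrial UMIs were kept, and the highest-scoring simulated-neighbour doublets, at 0.8% per 1000 barcodes, were removed (1270 cells at E12.5, 190 at E15.5). Each library was clustered alone with Leiden (leidenalg 0.10.2, resolution 1.0) on 2000 variable genes and 30 components, leaving out the 10 genes, 77 further pathway genes and cell cycle genes. Clusters were named where at least 3 markers of a class were at least 2-fold higher, with at least 1 among the top 10 genes. This rule was refined after the clusters were seen. Sums of raw UMIs gave CPM with exact Poisson intervals, ratios with exact conditional intervals, and shares after thinning to 2000 UMIs with Clopper-Pearson intervals; a count of 0 allows 3 counts. Ratio calls and intervals were run on simulated Poisson counts with known folds. Such counts hold counting error alone, so they cannot check the spread between cells or libraries. A gene entered a count of ratios with at least 20 UMIs over both groups compared. The members and gene lists were chosen with earlier results of these data known. All 10 genes are described; of each pathway list the 2 with most UMIs past the threshold in each direction are named, and further ones were chosen after their values were seen. The closing section gives the effect of other filters, clusterings, scalings and thinning depths.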

Additional observations from a re-analysis of the deposited data

Results flagged for a closer look

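2 genes had ratios between the ages that lay on opposite sides of 0 in different cell classes. For Fgf7 the log2 ratio (E15.5 over E12.5) was -1.67 in the muscle lineage, where its UMIs lay in differentiating cells, and 1.71 in connective tissue. For Fgf9 it was -4.14 in the muscle lineage and -2.32 in connective tissue but 2.42 in chondrocytes. The chondrocyte value rests on 4 and 31 UMIs, and the Matn1-led clusters held 4 and 0 of them. With 1 library per age the difference between classes was not tested.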

How the results depend on the processing

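No paired analysis was possible because each age has 1 library. Over 28 results and 276 alternative values, 222 stayed within the counting interval of the reported value, 50 moved outside it, and 4 changed sign where that interval excluded 0. Values whose interval includes 0, such as Fgf10 in muscle (-0.69, up to 0.09), Fgfr1 in muscle (0.04, down to -0.11) and Fgf7 in chondrocytes (-0.05, up to 0.36), also crossed 0 within it. The Fgf9 log2 ratio in muscle lay between -4.28 and -3.78 over its 10 alternatives, and that of Spry1 between 0.81 and 1.21. The number of genes past 2-fold in muscle and connective tissue together was 12, and between 10 and 14 over the alternatives. Scaling to the median gene gave log2 ratios of 1.06 for Fgfr4 in muscle and, in connective tissue, 2.09 for Fgf7, 2.64 for Fgf10, 2.04 for Fgf18 and -0.26 for Fgfr1. This follows from the median shift between the libraries. Clustering both libraries together gave 1.73 for Fgf10, 1.40 for Fgf18 and -0.43 for Fgfr1 in connective tissue. Giving each cell equal weight gave -0.70 for Fgfr1. Adding the chondrocyte, tenocyte and unnamed clusters to connective tissue, an alternative added after the data were seen, gave 1.47 for Fgf7 and -0.53 for Fgfr1. Fgfr3 in chondrocytes was -2.97 with no doublets removed, -3.11 with at least 1000 genes per cell, -3.10 with a mitochondrial limit of 5%, -2.99 at resolution 2.0 and -0.51 in the Matn1-led clusters. It changed sign, to 0.46, with both libraries clustered together. In chondrocytes Fgfr4 also changed sign with that clustering (0.08), and Fgfrl1 changed sign with it (1.22) and in the Matn1-led clusters (0.83). For the other moved values the cause was not tested. Depth limits the genes with few UMIs, and classes under 50 cells give wide intervals.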
